A study of Mus musculus with 4 samples.

Results

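The collagen chain genes were the 44 loci, of 55820 in the deposited table, whose gene name consists of Col, a type number, the letter a and a chain number. The chains of types 1, 2, 3, 5 and 11 formed the fibrillar group (9 genes), the chains of type 4 the basement membrane group (6 genes) and all further chains the group of other collagens (29 genes). A filter on low counts kept 42 of the 44 for testing. The 2 genes that it removed were *Col10a1*, a chain of cartilage, with 5 and 3 counts in control and 4 and 2 in Mps1sKO libraries, and *Col19a1*, with 1 and 2 counts in control and 3 and 5 in Mps1sKO libraries. These counts lie close to 3 counts, the limit that a count of 0 allows, and no fold change was computed for either gene.

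Collagens are the main structural proteins of the extracellular matrix. Their chains wind into helices, which are trimmed outside the cell and assemble into fibrils, sheets or filaments according to the type. Fibrillar collagens bear tension in connective tissue, whereas type 4 collagen forms the flexible network of basement membranes. In the testis, a basement membrane made jointly by Sertoli cells and peritubular myoid cells surrounds each seminiferous tubule and carries the spermatogonia, while fibrillar collagen lies in the tubule wall, the interstitium and the capsule.

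RNA sequencing covered whole testes of male C57BL/6J mice at post natal day 10, with 2 control libraries and 2 Mps1sKO libraries. In Mps1sKO mice, *Stra8*-Cre recombinase deletes floxed *Mps1* in germ cells from early spermatogonia onward, so the somatic cells that make collagen are not its target. The alleles that the control mice carried are not stated, nor is it stated whether a library came from 1 mouse, and p-values then measure only the spread between these libraries. The comparison of the genotypes asks here whether loss of the kinase from germ cells went along with a different collagen transcript level in the organ. The libraries held between 23311689 and 28607746 counts. A level is given as CPM (counts on each gene relative to the library total, after TMM scaling) when libraries are compared, and as the deposited FPKM, which also divides by gene length, when genes are compared. The targeted gene, *Ttk*, which encodes MPS1, had 27.9 and 32.6 CPM in control and 13.03 and 12.2 CPM in Mps1sKO libraries. Its log2 fold change, Mps1sKO over control, was −1.26 (adjusted p = 0.0461, edgeR).

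Sertoli and germ cell markers were present in every library. All 10 Sertoli markers were higher in Mps1sKO testes, at a median of 0.28 on the log2 scale and with 3 unadjusted p-values below 0.05, and their summed level was 6193 and 6429 CPM in control and 7827 and 7450 CPM in Mps1sKO libraries. All 10 germ cell markers were lower, with a median of −0.44 and 9 unadjusted p-values below 0.05, and summed to 1584 and 1828 CPM in control and to 1362 and 1176 CPM in Mps1sKO libraries. Of all tested loci, 9.30% had an unadjusted p below 0.05 in edgeR. None of the Sertoli and germ cell markers passed an adjusted p of 0.05 in edgeR, and 3 germ cell markers did in DESeq2. In such bulk samples, fewer cells of a type and less RNA per cell cannot be told apart from the counts alone. By immunostaining at the same age, the study reported fewer DDX4-positive germ cells per tubule in Mps1sKO than in control testes. The part of this loss in the levels given here was not tested.

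Collagen transcripts together made up 0.614% and 0.645% of all counts in the control libraries, against 0.604% and 0.649% in the Mps1sKO libraries. Their summed level was 6112 and 6401 CPM in control and 6075 and 6558 CPM in Mps1sKO libraries, so the groups overlapped. The first 3 genes by CPM took between 40.6% and 45.6% of the collagen sum. They were *Col3a1*, *Col1a2* and *Col1a1* in every library except Mps1sKO replicate 1, in which *Col4a1* took the place of *Col1a1*. The fibrillar group summed to 2924 and 3302 CPM in control and to 2666 and 3225 CPM in Mps1sKO libraries. Type 4 summed to 1472 and 1376 CPM in control and to 1698 and 1500 CPM in Mps1sKO libraries, so that both Mps1sKO sums exceeded the control sums. The other collagens summed to 1717 and 1724 CPM in control and to 1711 and 1833 CPM in Mps1sKO libraries.

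Per length, *Col3a1* had the highest mean level, 119 FPKM over the 4 libraries, followed by *Col6a1* with 105 FPKM, *Col1a1* with 81.4 FPKM and *Col1a2* with 76.8 FPKM. Neighbours in this order were not always separated by library. *Col1a1* exceeded *Col1a2* in 3 libraries but not in Mps1sKO replicate 1, where they had 63.3 and 69.0 FPKM. Next came *Col4a1* with 62.7, *Col4a2* with 52.9, *Col18a1* with 48.0, *Col4a4* with 39.3 and *Col6a2* with 34.2 FPKM. *Col5a1* (21.7 FPKM), *Col4a3* (18.2), *Col4a5* (12.9), *Col15a1* (12.1), *Col5a2* (11.3), *Col16a1* (11.1) and *Col6a3* (10.2) lay above 10 FPKM, and all further members lay below. At the lower end of the tested genes were *Col2a1*, the main cartilage collagen, with 0.531 FPKM, *Col9a1* with 0.344, *Col8a1* with 0.316, *Col28a1* with 0.291 and *Col4a6* with 0.120 FPKM.

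**Figure D1:**
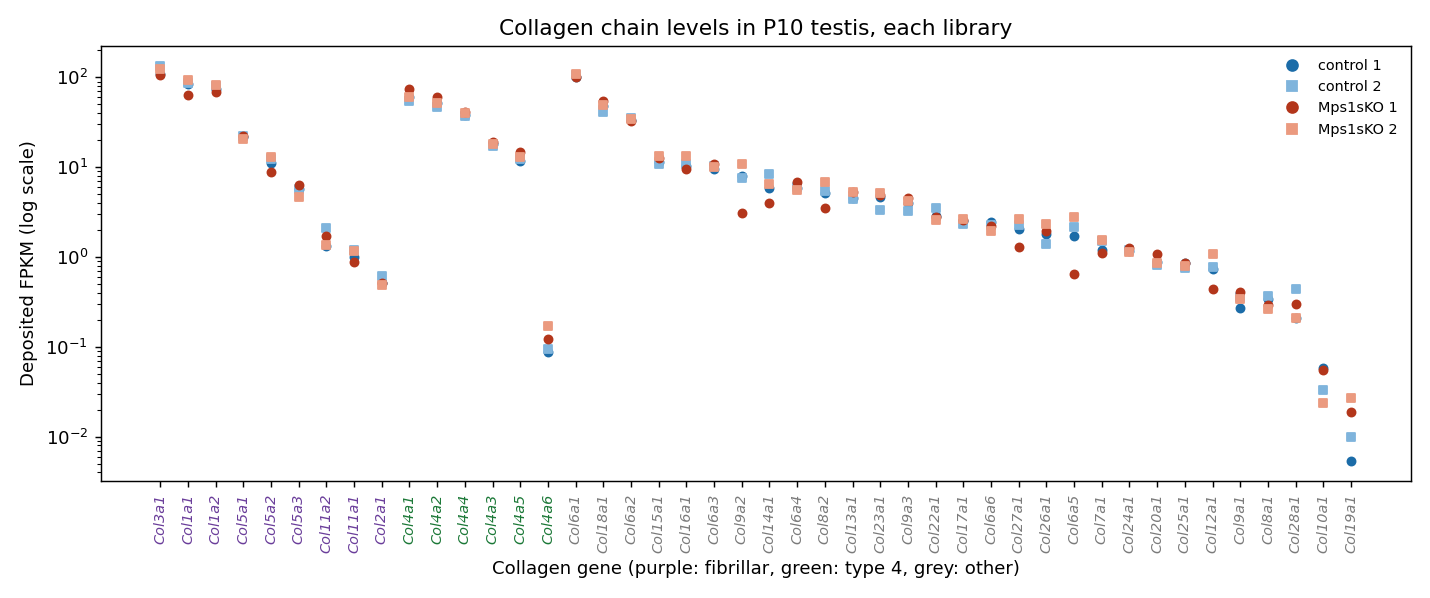
Level of the 44 collagen chain genes in each library as deposited FPKM on a log axis, ordered by mean within the fibrillar, type 4 and other groups. *Col3a1* leads with 119 FPKM on average, *Col4a6* is the one type 4 chain below 1 FPKM, and the circle of Mps1sKO replicate 1 stands below the other libraries for *Col9a2*, *Col8a2*, *Col27a1*, *Col6a5* and *Col12a1*.

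None of the 42 tested collagen genes passed an adjusted p of 0.05 in edgeR's quasi-likelihood test, which 0.0292% of the 20561 tested loci passed, and none did with DESeq2. At an unadjusted p below 0.05 there was 1 collagen gene, *Col26a1*, with either tool, beside 9.30% of all loci with edgeR. None met the cut-offs of the study, more than a 1.5-fold difference at an unadjusted p below 0.01, which 0.827% of loci met. The log2 fold change was above 0 for 21 of the 42 and below 0 for 21, beside 50.1% of all loci above 0. The median was 0.0038 over the collagen genes and 0.00027 over all loci.

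The groups lay on different sides of 0. All 6 type 4 chains were higher in Mps1sKO testes, at a median of 0.18 on the log2 scale, and all 9 fibrillar chains were lower, with a median of −0.11. The fibrillar median was close to 0 when either of 2 libraries was omitted, at 0.010 without Mps1sKO replicate 1 and −0.0020 without control replicate 2. Of the 27 other collagens tested, 15 were higher and 12 lower, with a median of 0.020. For 13 collagen genes the Mps1sKO values exceeded both control values, among them 6 of 6 type 4 chains and 0 of 9 fibrillar chains, against 20.3% of all loci. For 3 collagen genes, all in the group of other collagens, the Mps1sKO values were below both control values, against 21.1% of all loci. With 2 libraries in either group, an exact permutation test reaches no p below 0.333, so p-values come only from the fit over all loci.

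**Figure D2:**
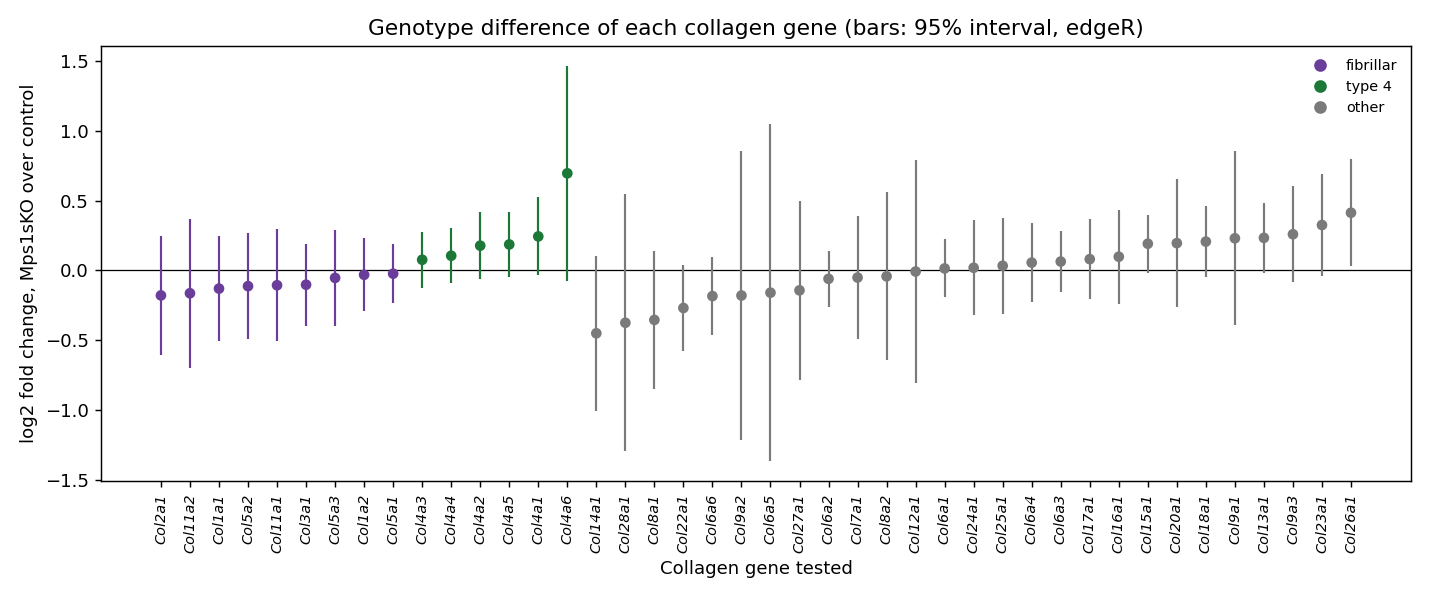
Log2 fold change, Mps1sKO over control, of the 42 tested collagen genes, sorted within each group, with points for edgeR's estimate and bars for its 95% interval. The 9 fibrillar points lie below 0 and the 6 type 4 points above 0, and only the interval of *Col26a1*, from 0.029 to 0.80, leaves out 0.

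Type 4 chains are encoded by gene pairs that start next to each other and are transcribed away from each other. *Col4a1* and *Col4a2* encode the chains of the network present in all basement membranes. They lie on chromosome 8 (GRCm38) from 11198423 to 11312826 and from 11312805 to 11449287, and their annotated starts overlap by 22 bases. *Col4a3*, *Col4a4* and *Col4a5* encode the chains of the mature glomerular network and are mutated in Alport syndrome. *Col4a4* and *Col4a3* lie on chromosome 1 from 82448423 to 82586849 and from 82586921 to 82722059, with 71 bases between them. *Col4a6* and *Col4a5* lie on chromosome X from 141165403 to 141474076 and from 141475385 to 141689234, with 1308 bases between their starts.

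The 71 bases between *Col4a4* and *Col4a3* are shown because both genes of this pair start at their edges and kept the steadiest ratio of the type 4 pairs. The upstream stretch of *Col4a6* is shown because it belongs to the type 4 chain with the lowest level and the largest fold change. Capitals mark GGGCGG, the core of the GC box bound by SP1, on either strand, which is in the second stretch only. The motifs TATAAA and CCAAT were also searched on both strands, and neither is in these stretches. Both sequences are from RefSeq's mouse assembly GRCm38.p6 and are written 5′ to 3′ in the direction of the first gene named.
*Col4a4* to *Col4a3*, chr1:82586850-82586920, minus strand: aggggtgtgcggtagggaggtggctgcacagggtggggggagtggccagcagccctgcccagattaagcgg
*Col4a6*, 250 bases before the start, chrX:141474077-141474326, minus strand: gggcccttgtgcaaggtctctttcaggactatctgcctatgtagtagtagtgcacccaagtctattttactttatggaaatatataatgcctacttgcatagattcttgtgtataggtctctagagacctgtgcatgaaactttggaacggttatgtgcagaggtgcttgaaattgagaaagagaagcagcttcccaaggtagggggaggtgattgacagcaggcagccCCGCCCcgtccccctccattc

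*Col4a1* had 453 and 408 CPM in control and 564 and 456 CPM in Mps1sKO libraries, a log2 fold change of 0.24 (standard error 0.12). *Col4a2* had 346 and 314 CPM in control and 398 and 349 CPM in Mps1sKO libraries, a log2 fold change of 0.18 (standard error 0.10). In both genes Mps1sKO replicate 1 was highest, and Mps1sKO replicate 2 exceeded control replicate 1 by less than the control libraries differed from each other. Without Mps1sKO replicate 1, the log2 fold change was 0.082 for *Col4a1* and 0.079 for *Col4a2*. The unadjusted p was 0.0784 for *Col4a1* and 0.122 for *Col4a2*, and the adjusted p was 0.578 and 0.618 from edgeR.

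*Col4a3* had 182 and 173 CPM in control and 192 and 183 CPM in Mps1sKO libraries, and *Col4a4* had 412 and 396 CPM in control and 443 and 425 CPM in Mps1sKO libraries. Their log2 fold changes were 0.077 (standard error 0.087) and 0.11 (standard error 0.085). These were the smallest differences of the type 4 group, and for *Col4a3* the nearest values of the groups, 181.5 and 182.5 CPM, almost met. Of the exonic bases of *Col4a3*, 5.65% are also annotated on the opposite strand to *C430014B12Rik*, and whether counting used the strand is not stated.

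*Col4a5* had 79.4 and 83.7 CPM in control and 98.96 and 86.7 CPM in Mps1sKO libraries, a log2 fold change of 0.19 (standard error 0.10), which was 0.088 without Mps1sKO replicate 1. *Col4a6* had only 19 and 22 counts in control and 23 and 37 counts in Mps1sKO libraries, or 0.706 and 0.763 CPM and 0.993 and 1.38 CPM. Its log2 fold change of 0.70 was the largest of all collagen genes, with a standard error of 0.33 and a 95% interval from −0.075 to 1.47. With edgeR the adjusted p was 0.596 for *Col4a5* and 0.567 for *Col4a6*. When any single library was omitted, all 6 chains stayed above 0, and their median ranged from 0.081 without Mps1sKO replicate 1 to 0.28 without Mps1sKO replicate 2.

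Within the pairs, the FPKM ratio of *Col4a3* to *Col4a4* was 0.470 and 0.467 in control and 0.461 and 0.457 in Mps1sKO libraries. The ratio of *Col4a1* to *Col4a2* ranged from 1.15 to 1.26 and was highest in Mps1sKO replicate 1. The ratio of *Col4a5* to *Col4a6* was 133.5 and 130.2 in control and 118 and 74.5 in Mps1sKO libraries, where the low counts of *Col4a6* set its precision. Across pairs, *Col4a4* reached between 0.553 and 0.681 of the level of *Col4a1*, lowest in Mps1sKO replicate 1.

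Sertoli cells contribute to the tubular basement membrane. Their summed markers were also higher in both Mps1sKO libraries than in both control libraries, as given above. The largest part of that sum was *Clu*, with 2900 and 3586 CPM in control and 4399 and 3319 CPM in Mps1sKO libraries. The groups overlapped for *Clu*. Of the 10 Sertoli markers, 4 had Mps1sKO values above both control values, against 20.3% of all loci. The median log2 ratio of Mps1sKO replicate 2 to replicate 1 was 0.24 for these markers, against −0.13 for the type 4 chains. The part of Sertoli cells in the type 4 difference was not tested. Endothelial cells have basement membranes as well, and 6 of 8 endothelial markers were higher, with a median log2 fold change of 0.081 and sums of 160 and 156 CPM in control and 167 and 166 CPM in Mps1sKO libraries.

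**Figure D3:**
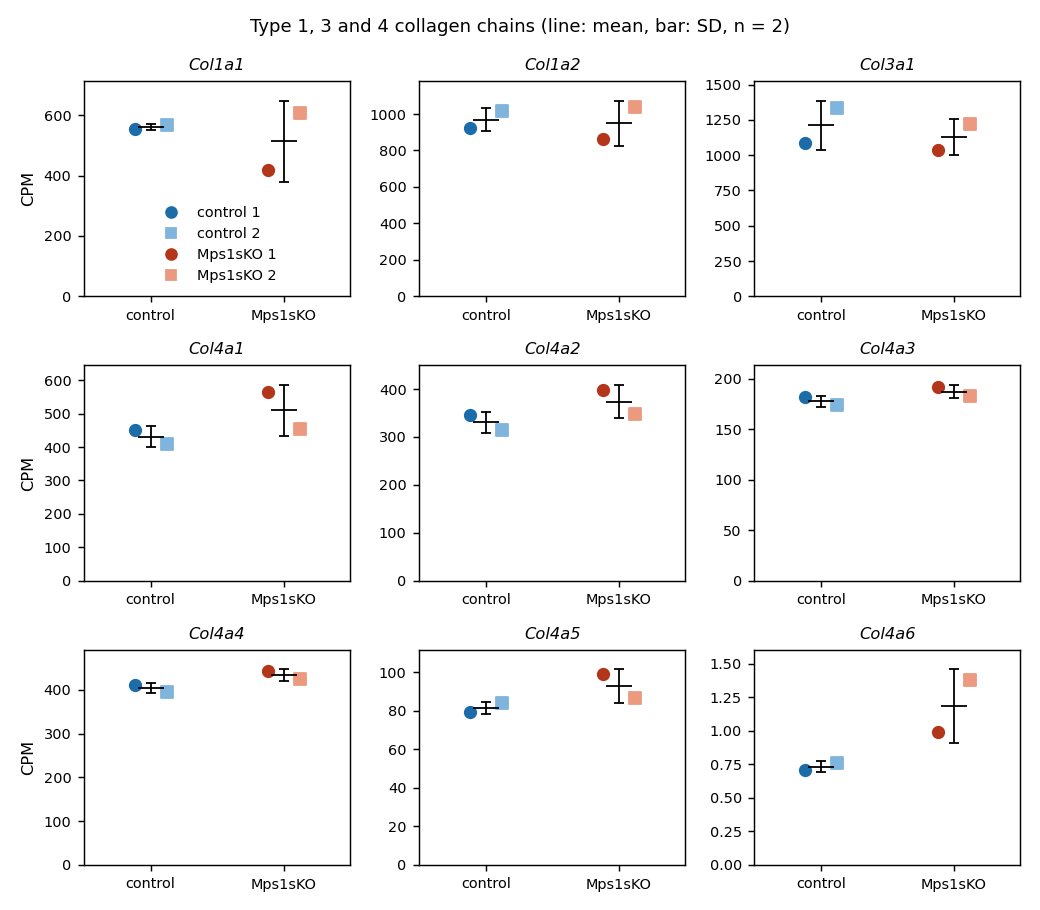
CPM of the type 1, 3 and 4 chains in each library, with a line for the group mean and a bar for the SD of 2 libraries, each axis starting at 0. Mps1sKO values exceed both control values in all 6 type 4 panels, while the type 1 and 3 panels overlap, with Mps1sKO replicate 1 lowest in each.

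*Col1a1* and *Col1a2* encode type 1 collagen, the main fibril of connective tissue, and *Col3a1* encodes type 3 collagen, which forms thin fibrils with it. *Col1a1*, on chromosome 11 from 94936224 to 94953042, had 554 and 568 CPM in control and 417 and 609 CPM in Mps1sKO libraries. *Col1a2*, on chromosome 6 from 4504814 to 4541544, had 924 and 1015 CPM in control and 861 and 1037 CPM in Mps1sKO libraries. *Col3a1*, on chromosome 1 from 45311538 to 45349706, had 1089 and 1335 CPM in control and 1038 and 1220 CPM in Mps1sKO libraries. In all 3 genes Mps1sKO replicate 1 was the lowest library, and Mps1sKO replicate 2 lay among or above the controls.

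The log2 fold changes were −0.13 for *Col1a1* (standard error 0.16), −0.031 for *Col1a2* (standard error 0.11) and −0.10 for *Col3a1* (standard error 0.13). Without Mps1sKO replicate 1 they turned to 0.12, 0.098 and 0.010, and without control replicate 2 they were −0.11, 0.038 and 0.052. The 95% interval of the *Col1a1* difference ran from −0.51 to 0.25. The FPKM ratio of *Col1a1* to *Col1a2* was 1.14 and 1.06 in control and 0.918 and 1.11 in Mps1sKO libraries.

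The stretch before *Col3a1* is shown because this gene had the highest level of all members and is one of the collagen genes with a TATA motif there. Capitals mark TATAAA, and neither CCAAT nor GGGCGG is in it. RefSeq's promoter table for GRCm38.p6 held 35 of the 44 members. Among these, 5 had TATAAA on either strand in the 250 bases before the start, 12 had CCAAT and 21 had GGGCGG. Annotated exons, of the same or another gene, overlapped all but 19 of the 35 windows. Of all 32851 promoters in the table, 12.4% had TATAAA, 33.8% had CCAAT and 32.7% had GGGCGG in the same window. A match describes these letters and shows no binding.
*Col3a1*, 250 bases before the start, chr1:45311288-45311537, plus strand: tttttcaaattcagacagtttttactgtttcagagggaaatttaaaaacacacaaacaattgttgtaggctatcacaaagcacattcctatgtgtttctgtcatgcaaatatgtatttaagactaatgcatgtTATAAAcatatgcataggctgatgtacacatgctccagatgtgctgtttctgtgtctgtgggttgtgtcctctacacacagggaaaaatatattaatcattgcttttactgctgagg

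The fibrillar chains of types 5 and 11 regulate the width of the fibrils that they join. *Col5a1* had a log2 fold change of −0.023, *Col5a2* of −0.11, *Col5a3* of −0.053, *Col11a1* of −0.11 and *Col11a2* of −0.16. *Col2a1* had 4.79 and 5.69 CPM in control and 4.79 and 4.48 CPM in Mps1sKO libraries. Its log2 fold change of −0.18 (standard error 0.18) was the lowest of the group, and it was the one fibrillar chain below 0 whichever library was omitted. Unadjusted p-values in the group were 0.359 and above. Although all 9 fibrillar chains were below 0, only 4 remained so without Mps1sKO replicate 1 and 5 without control replicate 2. The ratio of *Col5a1* to *Col5a2* was 1.93 and 1.79 in control and 2.53 and 1.60 in Mps1sKO libraries, highest in Mps1sKO replicate 1, where *Col5a2* was lowest.

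Among the other collagens, type 6 forms beaded filaments close to cells. *Col6a1*, on chromosome 10 from 76708792 to 76726168, had 450 and 467 CPM in control and 444 and 483 CPM in Mps1sKO libraries. *Col6a2* had 284 and 299.6 CPM in control and 273 and 287 CPM in Mps1sKO libraries. The log2 fold changes were 0.015 (95% interval −0.19 to 0.22) and −0.060 (95% interval −0.26 to 0.14). The FPKM ratio of *Col6a1* to *Col6a2* stayed between 2.97 and 3.21 in the 4 libraries. *Col6a3* and *Col6a4* had log2 fold changes of 0.064 and 0.056, and *Col6a5* and *Col6a6* of −0.16 and −0.18.

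The multiplexins *Col15a1* and *Col18a1* encode basement membrane collagens outside type 4, and the end of the *Col18a1* product is released as endostatin. *Col18a1*, on chromosome 10 from 77052178 to 77166548, had 341 and 288 CPM in control and 381 and 345 CPM in Mps1sKO libraries. Its log2 fold change was 0.21 (standard error 0.11 and, from edgeR, adjusted p = 0.594) and 0.091 without control replicate 2. *Col15a1* had 73.6 and 70.2 CPM in control and 80.0 and 84.2 CPM in Mps1sKO libraries, a log2 fold change of 0.19 (standard error 0.089). The groups did not overlap for either gene, as for the type 4 chains. Mps1sKO values lay above both control values at 20.3% of all loci.

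*Col26a1*, which encodes a collagen described in testis and ovary, lies on chromosome 5 from 136741759 to 136883209. It had 14.7 and 11.6 CPM in control and 15.8 and 19.2 CPM in Mps1sKO libraries. The groups did not overlap, and the control libraries differed from each other by more than control replicate 1 from Mps1sKO replicate 1. The log2 fold change was 0.41 (standard error 0.17), with an unadjusted p of 0.0382 and an adjusted p of 0.527 from edgeR, and it ranged from 0.25 to 0.59 when single libraries were omitted.

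*Col14a1*, a fibril-associated chain, had 41.3 and 59.7 CPM in control and 28.3 and 45.6 CPM in Mps1sKO libraries. Its log2 fold change of −0.45 (standard error 0.24 and, from edgeR, adjusted p = 0.594) was the lowest of all collagen genes, although the groups overlapped. It was −0.15 without Mps1sKO replicate 1, −0.16 without control replicate 2 and −0.84 without Mps1sKO replicate 2. With no filter on low counts the log2 fold change was again −0.45 and *Col14a1* passed an adjusted p of 0.05 in edgeR (0.0243). In that setting 390 of all 35262 loci passed, against 6 of 20561 with the filter.

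The remaining members are named here after their values were seen. The transmembrane collagens, which stay anchored in the cell surface, were higher in 4 of 4 cases, with log2 fold changes of 0.23 for *Col13a1*, 0.081 for *Col17a1*, 0.33 for *Col23a1* and 0.034 for *Col25a1*. *Col13a1* had 21.2 and 20.5 CPM in control and 24.7 and 24.2 CPM in Mps1sKO libraries, a gap wider than the spread within either group, with an unadjusted p of 0.0630 from edgeR. The fibril-associated chains *Col9a1*, *Col9a3*, *Col16a1* and *Col20a1* had log2 fold changes of 0.23, 0.26, 0.099 and 0.20. The exons of *Col9a3* overlap those of *Tcfl5* on the opposite strand over 6.07% of their bases. *Col22a1*, also of this class, had 26.5 and 32.7 CPM in control and 25.6 and 23.6 CPM in Mps1sKO libraries, a log2 fold change of −0.27.

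*Col8a1*, of the short network class, had 2.71 and 2.88 CPM in control and 2.29 and 2.09 CPM in Mps1sKO libraries, a log2 fold change of −0.35 (standard error 0.21). *Col6a6* had 22.7 and 20.9 CPM in control and 20.2 and 18.1 CPM in Mps1sKO libraries. With *Col22a1*, these were the 3 members whose Mps1sKO values were below both controls. *Col7a1*, the chain of the fibrils that anchor the epidermis, had a log2 fold change of −0.050. *Col24a1* and *Col27a1*, which resemble fibrillar chains, had 0.020 and −0.14, and *Col28a1*, at 28 to 63 counts a library, had −0.37 (standard error 0.40).

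The Mps1sKO libraries differed from each other more than from the controls for several other collagens. *Col6a5* had 16.1 and 20.6 CPM in control but 6.17 CPM in Mps1sKO replicate 1 and 26.5 CPM in replicate 2. *Col9a2*, a fibril-associated chain, had 25.3 and 23.9 CPM in control but 9.67 and 33.5 CPM in Mps1sKO libraries. *Col12a1* had 11.4 and 12.03 CPM in control but 6.73 and 16.4 CPM in Mps1sKO libraries. *Col8a2* had 23.4 and 24.7 CPM in control but 15.97 and 30.6 CPM in Mps1sKO libraries, and *Col27a1* had 27.1 and 29.5 CPM in control but 16.9 and 34.2 CPM in Mps1sKO libraries. In each of these 5 genes the control values lay between the Mps1sKO values, and Mps1sKO replicate 1 was the lowest library. The log2 fold changes were −0.16 (standard error 0.52) for *Col6a5*, −0.18 (standard error 0.45) for *Col9a2* and −0.0073 (standard error 0.34) for *Col12a1*.

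With *Col14a1*, these were the 6 of 42 collagen genes with a level in Mps1sKO replicate 2 more than 1.5 times that of replicate 1. Over all loci, this held for 1256 of 20561, or 6.11%. The reverse was seen for 0 of 42 collagen genes and for 1433 of the 20561 loci. Between the control libraries, replicate 2 was more than 1.5 times replicate 1 for 2 of 42 collagen genes, *Col11a2* and *Col28a1*, and for 1149 of the 20561 loci. The reverse was seen for 0 collagen genes. No type 4 or fibrillar chain was among the 6. Without Mps1sKO replicate 2, *Col6a5* and *Col9a2* had log2 fold changes of −1.57 and −1.35, and without Mps1sKO replicate 1 these were 0.53 and 0.45. Each of these fits left 1 Mps1sKO library, so the values restate the difference between the Mps1sKO libraries. The stretch before *Col6a5* is shown because this gene had the widest difference between libraries of the same genotype. Capitals again mark GGGCGG.
*Col6a5*, 250 bases before the start, chr9:105960644-105960893, minus strand: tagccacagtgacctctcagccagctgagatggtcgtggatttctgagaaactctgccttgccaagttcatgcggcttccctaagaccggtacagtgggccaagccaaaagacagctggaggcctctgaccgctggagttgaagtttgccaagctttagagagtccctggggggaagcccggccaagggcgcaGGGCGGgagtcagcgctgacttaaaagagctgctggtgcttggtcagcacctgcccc

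Some other genes were also lower in Mps1sKO replicate 1 than in replicate 2. The 4 mesothelial markers, of the layer that covers the testis, summed to 16.3 and 25.6 CPM in control and to 5.44 CPM in Mps1sKO replicate 1 and 19.1 CPM in replicate 2, with none at 0. Unlike the 5 collagens above, each of the 4 markers was highest in control replicate 2 rather than in Mps1sKO replicate 2, as in *Upk3b* with 8.36 and 12.7 CPM in control and 2.55 and 9.33 CPM in Mps1sKO libraries. Their median log2 ratio of Mps1sKO replicate 2 to replicate 1 was 1.96, against −0.0015 over all loci. *Fmod*, a proteoglycan on collagen fibrils, had 20.2 and 27.3 CPM in control and 9.80 and 30.5 CPM in Mps1sKO libraries. *Postn*, a matrix protein that binds collagen, had 59.5 and 54.8 CPM in control and 35.9 and 65.5 CPM in Mps1sKO libraries. Most collagen-binding matrix proteins did not show such a gap. Over the 14 tested, the median log2 ratio of Mps1sKO replicate 2 to replicate 1 was 0.065. The part of the mesothelial layer in the levels of the 5 collagens above was not tested.

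**Figure D4:**
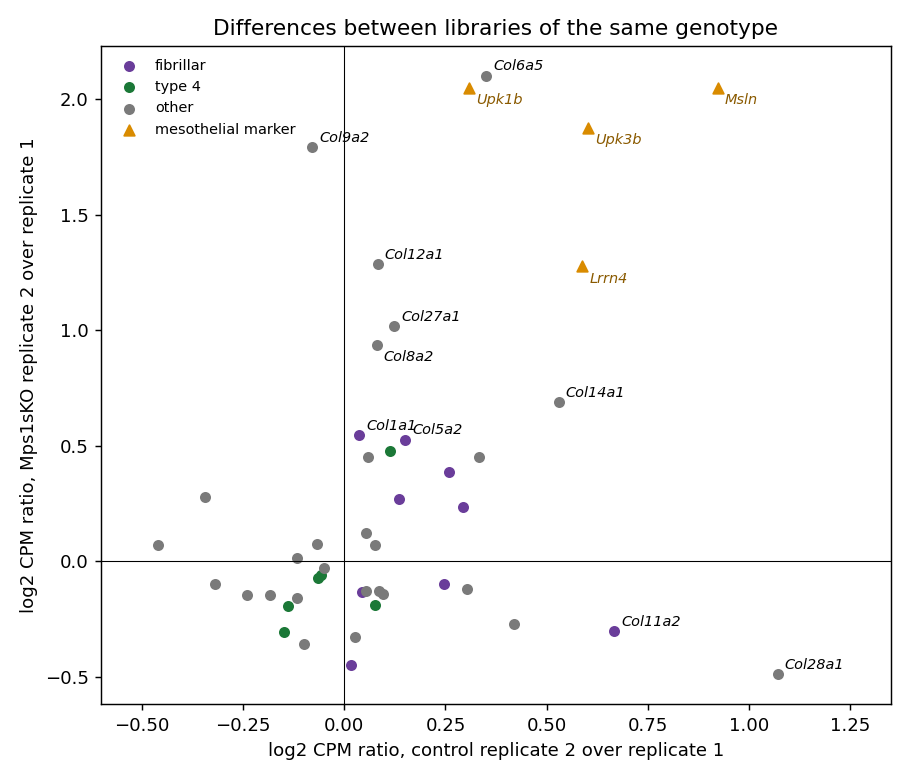
Log2 CPM ratio between the 2 control libraries (horizontal) and between the 2 Mps1sKO libraries (vertical) for the 42 tested collagen genes and the 4 mesothelial markers. *Col6a5*, *Col9a2*, *Col12a1* and *Col27a1* lie above 1 on the vertical axis with the mesothelial markers, while the type 4 chains (green) lie between −0.31 and 0.48.

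The genes that process, bind or sense collagen gave no adjusted p below 0.05 in edgeR or DESeq2. Of 21 modifying enzymes and chaperones, 13 were higher, with a median log2 fold change of 0.13, and 2 higher genes had an unadjusted p below 0.05, a share close to the 9.30% of all loci. *Serpinh1*, the collagen chaperone HSP47, had 243 and 249 CPM in control and 293 and 319 CPM in Mps1sKO libraries, a log2 fold change of 0.31 (standard error 0.089 and, from edgeR, adjusted p = 0.494). *Fkbp14*, a prolyl isomerase of the endoplasmic reticulum, had a log2 fold change of 0.28 (standard error 0.10). Both had Mps1sKO values above both controls, as did 20.3% of all loci.

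Of 13 procollagen proteinases and crosslinking enzymes, 7 were higher, with a median of 0.072. *Pcolce2*, an enhancer of procollagen cleavage, had 25 and 27 counts in control and 14 and 8 counts in Mps1sKO libraries, a log2 fold change of −1.06 (standard error 0.42 and, from edgeR, adjusted p = 0.527). Of 14 collagen-binding matrix proteins tested, 7 were higher and 7 lower, with a median of −0.036. *Fbln1*, a fibulin of matrix fibres and basement membranes, had 36.2 and 36.9 CPM in control and 28.2 and 29.1 CPM in Mps1sKO libraries, a log2 fold change of −0.35 (standard error 0.098 and, from edgeR, adjusted p = 0.494). *Matn2*, a matrilin, had a log2 fold change of 0.23 (standard error 0.094).

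Of 9 collagen receptors, 7 were higher, with a median of 0.12 and no unadjusted p below 0.05. Of 17 basement membrane components other than collagen, 11 were higher, with a median of 0.089. *Lama1*, a laminin chain of the tubular basement membrane, had 140 ± 3.17 CPM in control and 169 ± 13.6 CPM in Mps1sKO testes (SD, n = 2 each). Its log2 fold change was 0.27 (standard error 0.094 and, from edgeR, adjusted p = 0.506). The summed level of this list was 2638 and 2589 CPM in control and 3139 and 2508 CPM in Mps1sKO libraries, so that only Mps1sKO replicate 1 lay above the controls.

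Markers of the cells that make fibrillar collagen lay on both sides of 0. Of 9 peritubular myoid markers 3 were higher, with a median log2 fold change of −0.083, and *Smoc2* was the one with an unadjusted p below 0.05 (log2 fold change 0.22). Of 8 interstitial fibroblast markers 5 were higher, with a median of 0.058. The medians were 0.18 for 7 Leydig markers, −0.13 for 7 macrophage markers, 0.077 for 5 red blood cell markers, 0.034 for 5 skeletal muscle markers and −0.35 for 3 cartilage markers. The 5 adipocyte markers tested had a median of −1.55, with 4 lower and 1 higher. *Fabp4* had 28 and 129 counts in control and 15 and 12 counts in Mps1sKO libraries. *Plin1*, the most abundant of them, went the other way, with 18.7 and 11.9 CPM in control and 22.2 and 24.03 CPM in Mps1sKO libraries, a log2 fold change of 0.59 (standard error 0.20). The adipocyte list as a whole summed to 22.8 and 24.4 CPM in control and to 24.8 and 26.6 CPM in Mps1sKO libraries. *Plin1* held the largest part of each sum. *Car3* had 14 and 117 counts in control and 8 and 4 counts in Mps1sKO libraries. *Adipoq*, which the filter removed, had 2 and 23 counts in control and 1 and 7 counts in Mps1sKO libraries. As for *Fabp4*, control replicate 2 was the highest library for both. *Lep*, of the adipocyte list, was at 0 in all 4 libraries. *Acta1*, of the skeletal muscle list, had 3 and 7 counts in control and 3 and 0 counts in Mps1sKO libraries. All other members of these lists were detected in every library. The part of these cells in the collagen levels was not tested.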

How the data were processed

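Whole testis RNA was made into NEBNext Ultra libraries and read as 150 bp pairs on an Illumina NovaSeq. The submitters' processing notes name HISAT2 2.0.5, featureCounts, DESeq2 1.16.1 and the build mm10, while strandedness is not given in the sources used here. The authors deposited raw counts per gene, FPKM values and gene lengths for 4 libraries, over 55820 loci of which 284 have no annotated identifier and stayed in the tests. Coordinates of all 44 collagen genes equal those of GENCODE M21 (GRCm38).

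For the genotype comparison, the two-sided quasi-likelihood test of edgeR 4.0.16 (R 4.3.3) was applied to the counts of all 4 libraries after filterByExpr, TMM scaling and estimateDisp. P-values were adjusted by the Benjamini-Hochberg method over 20561 loci. A floor of 3 counts is 0.104 to 0.129 CPM and covers counting error only. The common biological coefficient of variation was 0.106. FPKM values served to compare genes and to form chain ratios. Alternatives were a change of tool (DESeq2 1.42.0 or voom from limma 3.58.1), of scaling (size factors of DESeq2, or none beyond library size), of filter (none, or 10 counts or more per library), of dispersion (robust), a block for replicate number, and the omission of single libraries. Tables and motif searches were made with Python 3.11.15.

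The members, lists and tests were chosen with earlier results of these data known. Genes with values per library were the 3 with the highest mean FPKM and the largest log2 fold change in each direction of each group, all type 4 chains, and any with an unadjusted p below 0.05. Of the other gene lists, up to 3 such genes by p could be named. This gave 15 collagen genes. Library values of any further collagen, and of *Fmod*, *Postn*, *Upk3b*, *Clu*, *Adipoq*, *Lep* and *Acta1*, are shown for genes chosen after their values were seen. Promoter sequences are RefSeq's for GRCm38.p6.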

Additional observations from a re-analysis of the deposited data

How the results depend on the processing

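With 2 libraries a group, leaving out 1 library assumes that the lone library varies like those of the other group. Collagen genes with an adjusted p below 0.05 numbered 0 with DESeq2, limma-voom, both other scalings, the stricter filter and the robust dispersion, 1 with no filter on low counts (*Col14a1*, log2 fold change −0.45) and between 0 and 2 with a library left out. All loci gave 390 with no filter and 35 without Mps1sKO replicate 2, where the 2 arose. Those with an unadjusted p below 0.05 numbered 6 with no filter and between 0 (without control replicate 2) and 12 (without Mps1sKO replicate 2) with a library left out, beside 3003 of 35262, 803 of 21324 and 2012 of 21495 loci in these settings. With the replicate number as a block, 0 collagen genes passed adjusted and 1, *Col14a1*, passed unadjusted, beside 1039 of 20561 loci unadjusted. The numbers are not a stated pairing, and deviations of libraries with the same number correlated at −0.19. Pairing them crosswise, an alternative added after the data were seen, gave 0 adjusted and 9 unadjusted. Of all 20561 loci, 550 passed adjusted and 3793 unadjusted in that setting.

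When single libraries were omitted, the median log2 fold change lay between 0.081 and 0.28 for type 4, between −0.19 and 0.010 for fibrillar chains, between −0.048 and 0.093 for the other collagens and between −0.029 and 0.081 for all collagens. Fibrillar chains below 0 numbered between 4 and 9. *Col1a1* lay between −0.43 and 0.12, *Col1a2* between −0.17 and 0.098, *Col3a1* between −0.24 and 0.052 and *Col6a1* between −0.048 and 0.076. *Col6a1* was −0.0066 with library size only, a scaling that put the median of all loci at −0.021. For the 15 genes chosen by rule, 186 log2 fold changes in the alternatives kept direction and side of the adjusted p threshold of 0.05. A further 8 reversed direction, and 1, *Col14a1* with no filter, crossed that threshold. The causes of these shifts were not tested.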
